A study of Mus musculus with 12 samples.

Results

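The array of hippocampal RNA from mice given streptozotocin at 3 mg/kg was set directly against the array from mice given 2.5 mg/kg, a dose ratio of 1.2. Both models were ICR mice, male and 7 weeks old, that received streptozotocin by intracerebroventricular (i.c.v.) injection, and tissue was taken after 14 days. Each array held RNA pooled in equal amounts from 3 animals, and there was 1 array per dose, so the spread between animals was not measured and no test between the doses was possible. Of 20882 genes with a probe, 14480 were well above background on both arrays by the flag of the scanner software, and these genes are the ones compared. They were read from 2 of the 12 arrays of the series. The other 3 arrays of ICR hippocampus, whose levels are given beside the streptozotocin levels, were from mice injected i.c.v. with amyloid-β (Aβ) at 5 or 10 μM, also taken at 14 days, and from mice given scopolamine at 1 mg/kg intraperitoneally 30 min before tissue collection. Arrays of untreated ICR mice were not analysed here, so every difference below is between the doses and says nothing of the distance of either dose from normal tissue.

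Streptozotocin is a glucose-like nitrosourea that enters cells through the glucose transporter GLUT2 and alkylates DNA. It is best known for killing the insulin-producing β cells of the pancreas, and it is injected into the brain ventricles of rodents to disturb brain insulin signalling and memory. The injection passes close to several tissues that border the hippocampus. The leptomeninges are sheets of fibroblasts that make collagens, small proteoglycans, retinoic acid, and solute transporters. They follow the larger vessels into the tissue together with smooth muscle cells and resident macrophages. The choroid plexus is the epithelium that secretes cerebrospinal fluid into the ventricles.

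Signals are given as log2 of the normalised intensity, and differences as the log2 value at 3 mg/kg minus that at 2.5 mg/kg, so that 1 stands for 2-fold. At least 2-fold higher signals at 3 mg/kg were found for 184 of 14480 genes (1.27%), and at least 2-fold lower signals for 67 (0.463%), which makes 251 genes (1.73%) apart in either direction. The median difference over all genes was 0.02, with a 5th percentile of -0.39 and a 95th percentile of 0.48. In the matrix of processed values that the authors deposited, used on its own scale, the median of all genes was shifted by -0.12 and the counts were 72 higher and 52 lower, so that 58.1% rather than 73.3% of the genes 2-fold apart were higher at 3 mg/kg. The genes just inside the threshold were Crygd and Entpd8, both at 2-fold to 3 digits, and those just outside were Sla, with 0.992, and Cdk14, with -0.997.

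The only repeated measurement within an array was that of probes printed in 10 spots. Over 276 such probes the spot-to-spot SD of the difference between the arrays had a median of 0.075. It was 0.25 for probes with a mean log2 signal under 6, 0.127 between 6 and 8, 0.0773 between 8 and 10, 0.0616 between 10 and 12, and 0.0564 at 12 or more. A 2-fold difference was thus larger than the spread between spots at every brightness, but that spread holds neither the variation between animals nor that of dissection, labelling, and hybridisation. Genes 2-fold apart were mostly dim. They made up 4.03% of genes with a log2 signal under 6 and 3.99% between 6 and 8, against 0.579% between 10 and 12 and 0.153% at 12 or more. The labelled tissue was checked on markers of hippocampal neurons. Of 12 markers on the array, 10 were well above background on both arrays, and 9 of these 10 were higher on both than on every cortex array of the series, C1ql2 being the exception. The cortex arrays were from male C57BL/6 mice aged 1.5 to 22 months, so strain, age, and treatment differed along with region. Tdo2 was above background at 2.5 mg/kg only, and Iyd on neither array.

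**Figure D1:**
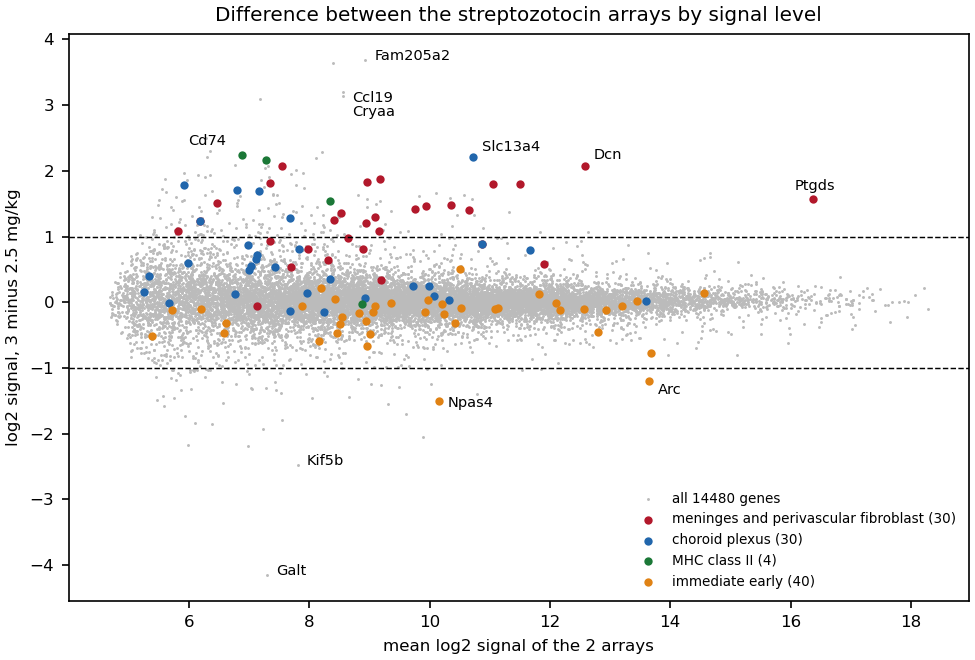
Difference between the streptozotocin arrays (log2 signal at 3 minus 2.5 mg/kg, y axis) against the mean log2 signal of the 2 arrays (x axis), with 1 point per gene and dashed lines at 2-fold. Genes of the meninges and fibroblast list (red) and MHC class II genes (green) lie mostly above 1, whereas Arc and Npas4 are the immediate early genes (orange) below -1.

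Genes of meningeal and perivascular fibroblasts formed the group with the most members apart. Of 34 such genes on the list and the array, 30 were measured on both arrays. Of the 30, 20 were at least 2-fold higher at 3 mg/kg, beside 1.27% of all genes, and none was 2-fold lower. The median difference of the 30 genes was 1.27, beside 0.02 for all genes, and 29 of the 30 lay above 0, compared with 53.9% of all genes. A further 3 members, Foxc2, Omd, and Slc22a2, were above background at 3 mg/kg only. Slc47a1 was not compared, being not above background on both arrays or without a full value. The summed signal of the 30 genes was 66769 and 192549 at 2.5 and 3 mg/kg, a ratio of 2.88. On the 2 Aβ arrays the same sum was 357674 and 318341, and on the scopolamine array it was 172738. Ptgds alone made up most of each of these sums, with log2 signals of 15.59 and 17.15 at 2.5 and 3 mg/kg. The median log2 level of the 30 genes was 8.29 and 9.46 at 2.5 and 3 mg/kg. It was 11.03 and 10.51 on the Aβ arrays and 9.03 on the scopolamine array. By sum and by median, the 2.5 mg/kg array was therefore the lowest of the 5, and the 3 mg/kg array lay within the range of the other 3 arrays. For 27 of the 30 genes the 2.5 mg/kg array had the lowest level of the 5, which was so for 23.5% of all genes. It was so for 85.9% of the 184 genes at least 2-fold higher at 3 mg/kg, an order favoured by the choice on this contrast. In such bulk tissue, fewer cells of a type and less RNA per cell cannot be told apart. Whether more meninges stayed on one dissected tissue than on the other was not tested.

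The small leucine-rich proteoglycans, which bind collagen fibrils, gave the largest values of this group. Decorin (Dcn) had a log2 signal of 11.54 and 13.61 at 2.5 and 3 mg/kg, which is 4.21-fold higher. It read 14.76 and 14.34 on the Aβ arrays and 13.65 on the scopolamine array. Fibromodulin (Fmod) read 6.52 and 8.59, a 4.19-fold difference. Osteoglycin (Ogn) was higher by 1.08 and lumican (Lum) by 0.81, but biglycan (Bgn), with 7.17 and 7.11, was not apart. The members named here that were measured on both arrays thus ranged from no difference to 4-fold. Omd, of the same family, was above background at 3 mg/kg only, at least 4.96-fold higher.

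Among the collagens, the chains of fibrillar types I and III were higher at 3 mg/kg. Col3a1 read 6.44 and 8.25 at 2.5 and 3 mg/kg, with 10.12 and 10.01 on the Aβ arrays and 7.26 on the scopolamine array. Col1a2 read 9.61 and 11.10, and Col1a1 read 7.84 and 9.20. The collagen family was looked up after these values were seen. Of its 29 measured genes, 5 were at least 2-fold higher, beside 1.27% of all genes, and none was lower. Besides the 3 named chains these were Col6a3 (1.45) and Col6a1 (1.19), of the beaded type VI collagen. The 4 measured chains of type IV, the collagen of basement membranes, differed by -0.08 to 0.70. Of proteins that process or coat collagen, Aebp1 read 10.60 and 12.40, the matrix Gla protein gene Mgp read 10.16 and 11.96, and Pcolce, an enhancer of procollagen cleavage, read 9.95 and 11.36. Fibronectin (Fn1) was higher by 0.59 only.

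Transporters and enzymes of the leptomeninges were higher as well. Slc22a6, an organic anion transporter, read 8.24 and 10.12 at 2.5 and 3 mg/kg, and Slc6a13, a GABA and taurine transporter, read 9.21 and 10.68. Their levels on the Aβ arrays were 11.67 and 10.98 for Slc22a6, and 12.57 and 12.05 for Slc6a13, above both streptozotocin arrays. Aldh1a2, which makes retinoic acid, read 8.04 and 9.87, and Crabp2, which carries it in the cytoplasm, read 9.06 and 10.47. Prostaglandin D synthase (Ptgds), the brightest gene of the group, read 15.59 and 17.15, a difference of 1.56 at a brightness where the SD between spots was 0.0564. Of the transcription factors on the list, Osr1 was higher by 1.51 and Foxd1 by 1.09, and Foxc1 was higher by 0.33.

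**Figure D2:**
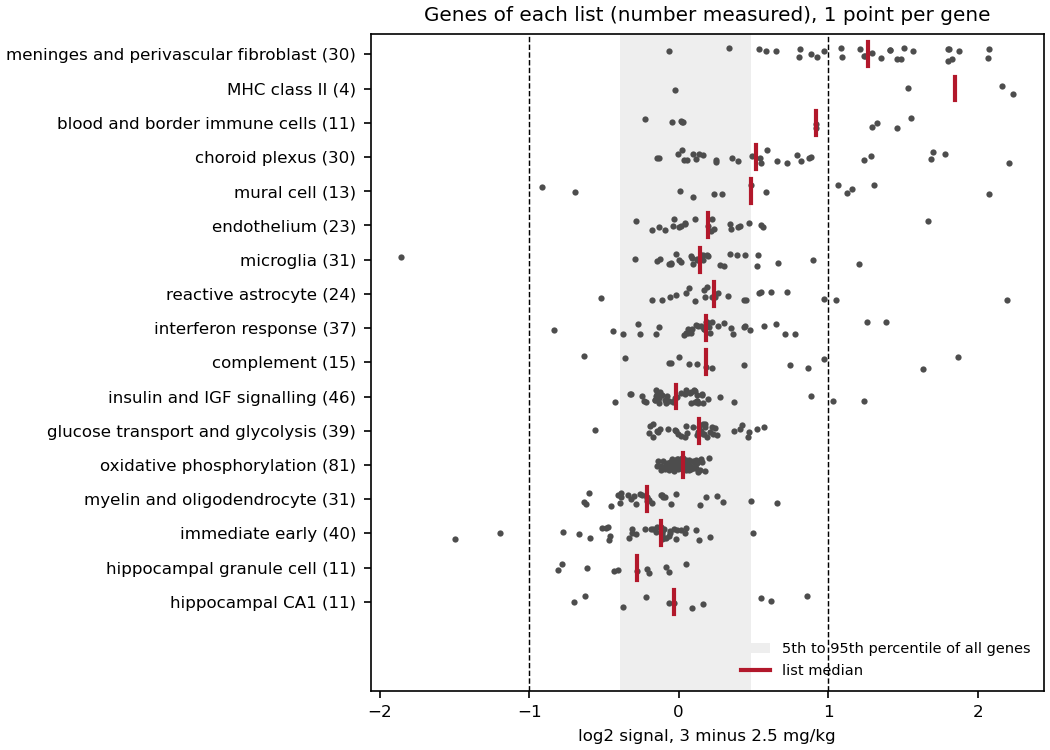
Log2 signal at 3 minus 2.5 mg/kg (x axis) for the measured genes of 17 lists (rows, number of genes in parentheses), 1 point per gene, with the list median in red, the 5th to 95th percentile of all genes in grey, and dashed lines at 2-fold. The medians of the fibroblast list (1.27) and of MHC class II (1.85) lie beyond 2-fold, and the points for oxidative phosphorylation stay between -0.15 and 0.20.

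Vessel genes were apart in some members. Of 13 measured genes of mural cells, 5 were at least 2-fold higher at 3 mg/kg, beside 1.27% of all genes. None of the 13 was 2-fold lower, and the median was 0.48. Of the 5, Cnn1, Acta2, Tagln, and Myh11 are contractile genes of arterial smooth muscle, and Anpep is a peptidase that is also found on pericytes. Calponin (Cnn1) read 6.27 and 8.35 at 2.5 and 3 mg/kg, with 10.41 and 10.80 on the Aβ arrays and 6.64 on the scopolamine array. Acta2 read 9.79 and 10.95, Tagln 10.32 and 11.44, Myh11 5.56 and 6.63, and Anpep 7.84 and 9.15. The other 8 genes of the list were less than 2-fold apart: Myl9 differed by 0.58, Notch3 by 0.48, Vtn by 0.29, Cspg4 by 0.23, Pdgfrb by 0.09, and Rgs5 by 0.01, whereas Abcc9 and Kcnj8, subunits of a potassium channel, differed by -0.69 and -0.91. In the deposited matrix 1 of the 13 genes, and not 5, was 2-fold higher. Among 23 endothelial genes only von Willebrand factor (Vwf) was 2-fold apart, with 9.27 and 10.93. Over all genes 1.73% were 2-fold apart, and the median of the endothelial list was 0.20. Other endothelial genes such as Cldn5 (-0.18), Flt1 (-0.04), and Mfsd2a (0.00) were close to 0.

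MHC class II molecules present peptides taken up from outside the cell and are made in the brain mainly by macrophages of its borders. Their genes share upstream elements, one of which is the Y box, an inverted CCAAT motif. Of 3 genes of class II α and β chains looked up among the RefSeq promoters of GRCm38.p6, 2 had an entry. The stretch of 100 bases before the transcription start is shown for these 2, H2-Aa (chr17:34287824-34287923, minus strand) and H2-Eb1 (chr17:34305767-34305866, plus strand). The bases are written 5′ to 3′ on the strand of the gene with CTGATTGG in capitals.
H2-Aa: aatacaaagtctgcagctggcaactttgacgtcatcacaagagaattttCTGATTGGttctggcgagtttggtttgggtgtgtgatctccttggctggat
H2-Eb1: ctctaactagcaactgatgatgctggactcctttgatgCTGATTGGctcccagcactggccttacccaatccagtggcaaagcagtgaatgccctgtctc
The first base of the motif lay at position -51 in H2-Aa and at -62 in H2-Eb1, counted from the start site. Searched on both strands, the same 8 letters occurred in 4.1% of the 32851 promoters of 300 bases, so the match describes these sequences and is no evidence of binding. H2-Ab1 had no entry.

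Of 7 class II genes on the list used here, 4 were measured on both arrays. Of the 4, 3 were at least 2-fold higher at 3 mg/kg, beside 1.27% of all genes. The invariant chain Cd74, which escorts class II molecules, read 5.77 and 8.01 at 2.5 and 3 mg/kg, 4.71-fold higher, against 9.79 and 8.81 on the Aβ arrays and 8.68 on the scopolamine array. The β chain gene H2-Ab1 read 6.21 and 8.37, and its 2 probes gave differences of 2.03 and 2.29. H2-Eb1, whose promoter is shown above, read 7.57 and 9.11. For all 3 genes the 2.5 mg/kg array was the lowest of the 5 ICR arrays, an order favoured by the choice on this contrast. H2-DMa, which loads peptides, did not differ, with 8.88 and 8.86. H2-DMb1 was above background at 2.5 mg/kg only, where it was at least 1.09-fold higher. H2-Aa and the class II transactivator Ciita were not compared, being not above background on both arrays or without a full value. H2-Eb2 and H2-Oa, class II chain genes outside the list, were above background at 3 mg/kg only, at least 1.84-fold and 1.07-fold higher. None of 19 genes of MHC class I and peptide loading was 2-fold apart, and their median was 0.15.

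Genes of macrophages at the brain borders were higher at 3 mg/kg as well. Of 11 measured genes of blood and border immune cells, 4 were at least 2-fold higher at 3 mg/kg, beside 1.27% of all genes, and none was lower. The mannose receptor Mrc1 read 6.04 and 7.60 at 2.5 and 3 mg/kg, the transglutaminase F13a1 read 6.06 and 7.52, the chemokine Pf4 read 6.91 and 8.20, and lysozyme Lyz1 read 7.57 and 8.90. On the other 3 ICR arrays these genes lay between 6.84 (F13a1 on the scopolamine array) and 10.00 (Lyz1 on the 5 μM Aβ array). Members of the same list that mark neutrophils and T cells were not apart: S100a9 read 6.82 and 6.84, and Cd3e 8.64 and 8.66. The summed signal of the list was 1354 at 2.5 mg/kg, 2252 at 3 mg/kg, and 2332 to 4622 on the other 3 arrays. Its ratio between the doses was 1.66, beside 2.88 for the fibroblast list, a sum made up mostly of Ptgds. The part of the fibroblast list in the macrophage and class II values was not tested.

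**Figure D3:**
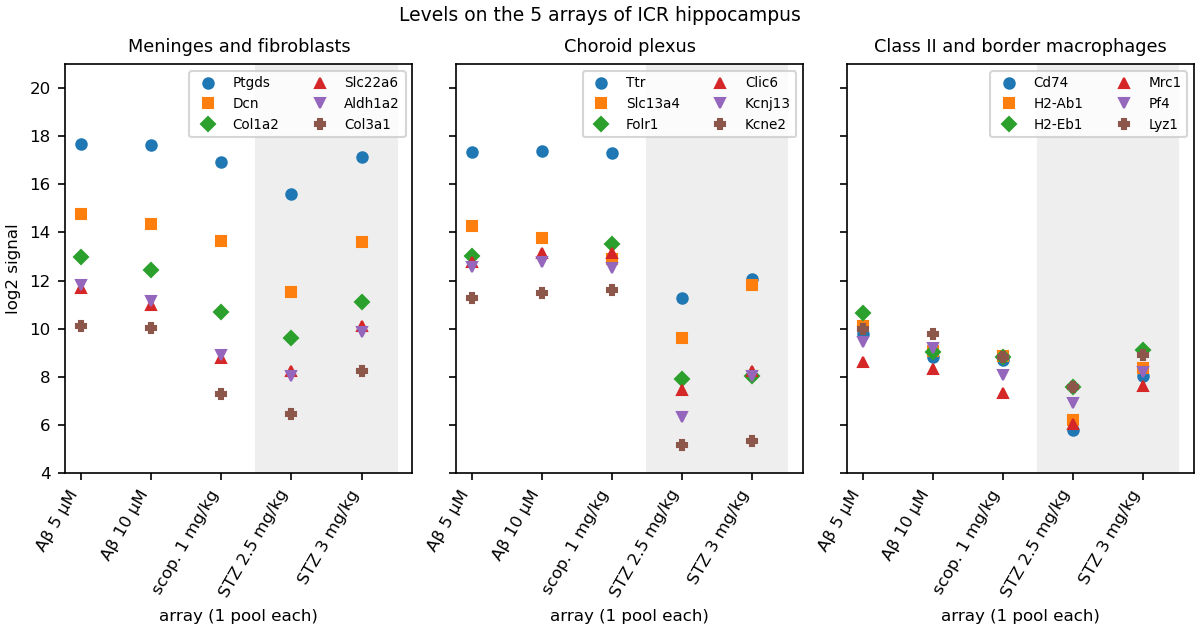
Log2 signal (y axis) of 18 genes on the 5 arrays of ICR hippocampus (x axis, 1 pool of 3 animals each; STZ, streptozotocin, shaded; scop., scopolamine). Fibroblast, class II, and macrophage genes are lowest of the 5 at 2.5 mg/kg and higher at 3 mg/kg, whereas choroid plexus genes such as Ttr are far lower on both streptozotocin arrays than on the other 3.

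Parenchymal microglia showed little of this. Of 31 measured microglial genes, Fcrls, an Fc receptor-like gene, was 2-fold higher (7.47 and 8.68) and the chemokine gene Ccl3 was 2-fold lower (7.32 and 5.46), and the median was 0.14. Over all genes, 1.27% were at least 2-fold higher and 0.463% lower. Microglial genes such as Tmem119 (0.15), P2ry12 (0.19), Csf1r (0.16), and Aif1 (-0.05) differed by less than 0.2. Ccl3 was brightest at 2.5 mg/kg, where the other 3 ICR arrays read 4.03 to 5.19, and Ccl4, its neighbour in function, was above background at 3 mg/kg only, at least 2.5-fold higher. Over the 16 measured chemokine genes, a family looked up after these values were seen, 5 were at least 2-fold higher, beside 1.27% of all genes. These were Ccl19 (3.20), Ccl5 (2.08), Pf4 (1.29), Cxcl16 (1.18), and Ccl12 (1.10), and of the 16 genes Ccl3 alone was 2-fold lower. Of 15 complement genes, 2 were at least 2-fold higher, beside 1.27% of all genes. Itgax, a subunit of complement receptor 4, read 5.03 and 6.90, and C2, a serine protease of the classical pathway, read 8.0 and 9.63. By contrast, C1qa, C1qb, and C1qc differed by -0.06 to 0.00. The complement genes Hc, C8b, and C1s1 were above background at 3 mg/kg only, at least 4.15-fold, 3.0-fold, and 2.09-fold higher. Of 37 interferon-response genes, Ifit2 (1.39) and Gbp4 (1.26) were 2-fold higher, beside 1.27% of all genes, and the median was 0.19.

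Genes of reactive astrocytes had a median of 0.23 over 24 measured members, of which 19 lay above 0. Of the 24, 2 were at least 2-fold higher, beside 1.27% of all genes. Sphingosine kinase Sphk1 read 7.01 and 9.21 at 2.5 and 3 mg/kg, and its probes gave 2.14 and 2.26. Ceruloplasmin (Cp), a copper-binding ferroxidase, read 6.66 and 7.71. Gfap, the filament protein of astrocytes, differed by 0.26, and Serpina3n by -0.02. Cxcl10 and Timp1, also on this list, were above background at 3 mg/kg only, at least 2.82-fold and 2.51-fold higher. None of 21 genes of resting astrocytes was 2-fold apart, with a median of 0.03.

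Choroid plexus genes differed between the doses in some members but differed far more between the streptozotocin arrays and the other ICR arrays. All 30 measured members were lower on both streptozotocin arrays than on each of the other 3 arrays, a pattern seen for 15.1% of all genes. Folr1 had no value at 10 μM Aβ, where its spot was an outlier, and enters there neither the pattern nor the sum. The summed signal of the 30 genes was 23986 and 31704 at 2.5 and 3 mg/kg, against 381070 to 403677 on the other 3 arrays. Between the doses, 6 of the 30 were at least 2-fold higher at 3 mg/kg, beside 1.27% of all genes. None of the 30 was 2-fold lower, and their median was 0.52. Transthyretin (Ttr), the main secreted protein of this epithelium, read 11.27 and 12.06, against 17.33 to 17.41 on the other arrays. The potassium channel gene Kcnj13 read 6.32 and 8.01, with 1.38 and 2.0 for its 2 probes, against 12.51 to 12.75. Kcne2 (0.16), Kl (0.06), Folr1 (0.13), and Sostdc1 (-0.13), which mark the same epithelium, differed by less than 0.2. The largest difference on the list was that of the sulfate transporter Slc13a4, which read 9.62 and 11.83, with 14.27 and 13.78 on the Aβ arrays and 12.88 on the scopolamine array. The other 4 members past 2-fold were Wdr86 (1.78), Lbp (1.70), Sulf1 (1.29), and Igf2 (1.24), and Igf2 is also on the fibroblast list. The water channel gene Aqp1 was above background at 3 mg/kg only, at least 1.63-fold higher. Slc4a5 was not compared, being not above background on both arrays or without a full value.

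Of 46 measured genes of insulin and insulin-like growth factor (IGF) signalling, the pathway that streptozotocin is used to disturb, 2 were at least 2-fold higher, beside 1.27% of all genes, none was lower, and the median was -0.02. Both were secreted components: Igf2 read 5.57 and 6.81 at 2.5 and 3 mg/kg, and the IGF-binding protein gene Igfbp3 read 6.48 and 7.51. The receptors Insr (0.07) and Igf1r (-0.08), the adaptors Irs1 (-0.13) and Irs2 (0.12), and the kinases Akt1 (0.05) and Gsk3b (0.11) all differed by less than 0.2. None of 39 genes of glucose transport and glycolysis and none of 81 genes of oxidative phosphorylation was 2-fold apart, with medians of 0.14 and 0.03. None of 35 genes of DNA damage and p53 was 2-fold apart either, with a median of -0.06. Cdkn1a, a p53 target that stops the cell cycle, differed by 0.03, and Mgmt, which removes alkyl groups from guanine, by 0.40.

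Activity-dependent genes of neurons were lower at 3 mg/kg in 2 cases. Npas4, a transcription factor induced by calcium entry, read 10.90 and 9.40 at 2.5 and 3 mg/kg, with 9.02 and 9.24 on the Aβ arrays and 10.79 on the scopolamine array. Arc, which regulates glutamate receptors at synapses, read 14.24 and 13.05, with 12.63, 12.71, and 13.37 on the same arrays. Both genes were thus highest at 2.5 mg/kg, an order favoured by the choice on this contrast. Their level at 3 mg/kg lay within the range of the other arrays. Of 40 measured immediate early genes these 2 were 2-fold lower, beside 0.463% of all genes, and none was higher. Of the 40, 7 lay above 0, and the median was -0.12. Nr4a1 (-0.77), Fos (-0.67), Egr2 (-0.60), and Egr1 (-0.46) were lower by less than 2-fold, and Jun (0.02) and Dusp1 (0.04) did not differ. Granule cells of the dentate gyrus had a median of -0.28 over 11 genes, none of them 2-fold apart, and 1 of the 11 lay above 0. Their largest differences were those of Dsp (-0.80) and lactase Lct (-0.78). Myelin genes had a median of -0.21 over 31 genes, none of them 2-fold apart, with Mal at -0.60.

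The most negative and the largest positive difference of single genes lay within 1 region of chromosome 4. Galt, the galactose-1-phosphate uridylyltransferase that converts galactose for glycolysis, had the most negative difference of all genes, with 9.37 and 5.22 at 2.5 and 3 mg/kg, a 17.8-fold difference read by 1 probe. It read 9.09 and 8.32 on the Aβ arrays and 5.40 on the scopolamine array, so that it was low on the 3 mg/kg and scopolamine arrays and high on the other 3. Fam205a2 had the largest positive difference, with 7.09 and 10.78, and its 3 passing probes gave 2.38, 4.05, and 4.65. Ccl19, a chemokine that guides dendritic cells and T cells to lymph nodes, read 6.96 and 10.16, and its 3 probes gave 2.13, 2.86, and 4.61. On the other ICR arrays Fam205a2 read 6.55 (5 μM Aβ), 9.39 (10 μM Aβ), and 10.60 (scopolamine), and Ccl19 read 7.83, 9.53, and 10.20 in the same order. From Galt to Ccl19 there are 49 annotated genes in assembly GRCm38.p6, of which 8 were measured and 5 of these were at least 2-fold apart. None of the 24 measured genes that flank them was, but the region was drawn to begin and end at genes chosen for their difference, so the counts are a description only. The 5 include predicted genes Gm3893 (3.64) and Gm20878 (1.07). Il11ra1 (-0.64), Ccl27a (-0.20), and Gm13304 (-0.04), which lie among them, were not apart. Genes of this region exist in near-identical copies that probes may not tell apart, so the values cannot be assigned to 1 copy with certainty.

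**Figure D4:**
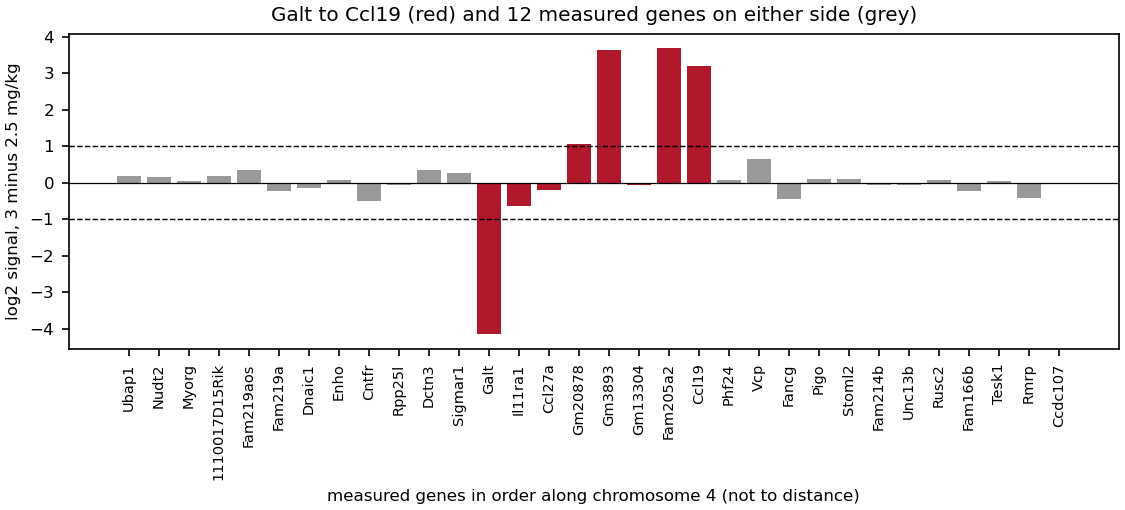
Log2 signal at 3 minus 2.5 mg/kg (y axis) of 32 measured genes in their order along chromosome 4 (x axis, evenly spaced), with the 8 genes from Galt to Ccl19 in red and 12 genes on either side in grey. Galt stands at -4.15 and Fam205a2 at 3.69, and no flanking gene passes the dashed lines at 2-fold.

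Most other large positive differences were read by a single probe. The lens protein gene Cryaa read 6.99 and 10.12 at 2.5 and 3 mg/kg, an 8.77-fold difference, and it read 5.70 to 6.17 on the other 3 ICR arrays. Its second probe was below background on both arrays. Among 12 measured crystallin genes, a family looked up after these values were seen, Crygs (2.04), Cryba2 (1.72), and Crygd (1.0) were also at least 2-fold higher, whereas Cryab, a crystallin that is common in glia, differed by -0.57. Cryba2 and Crygd read 4.69 and 4.79 at 2.5 mg/kg, near the lowest level that counted as above background there, 4.57. Crygb was above background at 2.5 mg/kg only, at least 2.20-fold higher, and Cryba1 at 3 mg/kg only, at least 2.70-fold higher. Crybb2 and Crygc, each with 2 probes, were also above background at 3 mg/kg only, at least 1.94-fold and 1.88-fold higher. The adhesion gene Mpzl2 read 5.21 and 7.5, the recombination gene Psmc3ip 7.07 and 9.36, and the bile acid receptor gene Gpbar1 5.77 and 8.02. The protease inhibitor gene Wfikkn2 read 5.20 and 7.42 with 1 of its 3 probes, and Dlk1, a Notch-related ligand, read 6.18 and 8.31 with 1 of 2. Of these, Gpbar1 and Cryaa were brighter at 3 mg/kg than on any of the other 4 ICR arrays, and Mpzl2, Psmc3ip, Wfikkn2, and Dlk1 were lower at 2.5 mg/kg than on any of the other 4. Both orders are favoured by the choice on this contrast. Single members past 2-fold on further lists were Trib3 (1.26) among 36 heat shock and chaperone genes, the cilia gene Cfap52 (1.25) among 25, and the clock gene Per2 (1.21) among 20. Beside them, 1.27% of all genes were 2-fold higher, and 3.99% of genes with their log2 signal of 6 to 8 were 2-fold apart. Such single members therefore describe no list as a whole.

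Of the genes that were lower at 3 mg/kg, 60 of 67 were higher at 2.5 mg/kg than on any other ICR array, an order seen for 26.1% of all genes and favoured here by the choice on this contrast. The motor protein gene Kif5b read 9.05 and 6.58 at 2.5 and 3 mg/kg, but 8.91 on the scopolamine array. Myoc, the myocilin gene, read 8.08 and 5.90, and Rspo1, an activator of Wnt signalling, read 10.92 and 8.87. The transcription factor genes Foxj2 (7.07 and 4.89), Zfp236 (8.45 and 6.65), and Zhx2 (6.80 and 5.06) were lower too, as were the interferon gene Ifna12 (7.02 and 5.17), the mitochondrial dehydrogenase gene Acad9 (10.45 and 8.75), and the non-coding host gene Snhg3 (10.09 and 8.55). Foxj2, Zhx2, and Ifna12 read 4.28 to 4.80 on the other 3 ICR arrays, near the lowest level that counted as above background. Cyp51, of cholesterol synthesis, read 7.70 and 6.39, and none of the other 25 measured genes of that pathway was 2-fold apart. Each of these genes was measured by 1 passing probe.

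Further probes could be consulted for a minority of genes. Of the 251 genes 2-fold apart, 219 had 1 passing probe, and 35 of those had further probes that were below background on at least 1 of the arrays. For the 32 genes with 2 or more passing probes, all probes were at least 2-fold apart in the same direction in 19, and all had the same sign in 30. The exceptions in sign were Virma, whose probes gave 0.03 and -2.22, and 4933409K07Rik, with -0.30 and 3.46. Agreement was close for Fhit, a dinucleotide hydrolase (1.71 and 1.77), for the globin gene Ngb (1.12 and 1.14), for Urah, of uric acid breakdown (-1.23 and -1.26), and for the osteocalcin-related Bglap3 (-1.30 and -1.32). Bace2, a homologue of β-secretase, gave 1.26 and 1.74, whereas Bace1 differed by 0.13. The splicing gene Cwc22 gave 1.25 and 1.48, Cpne2 1.13 and 1.51, and Trim7 -1.0 and -1.2. The nuclear receptor gene Rxrg, on the list of striatal genes, rested on 1 of its probes (1.90, the other 0.16). Genes with 2 or more passing probes were 2-fold apart in 0.836% of cases, and genes with 1 in 2.06%.

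**Figure D5:**
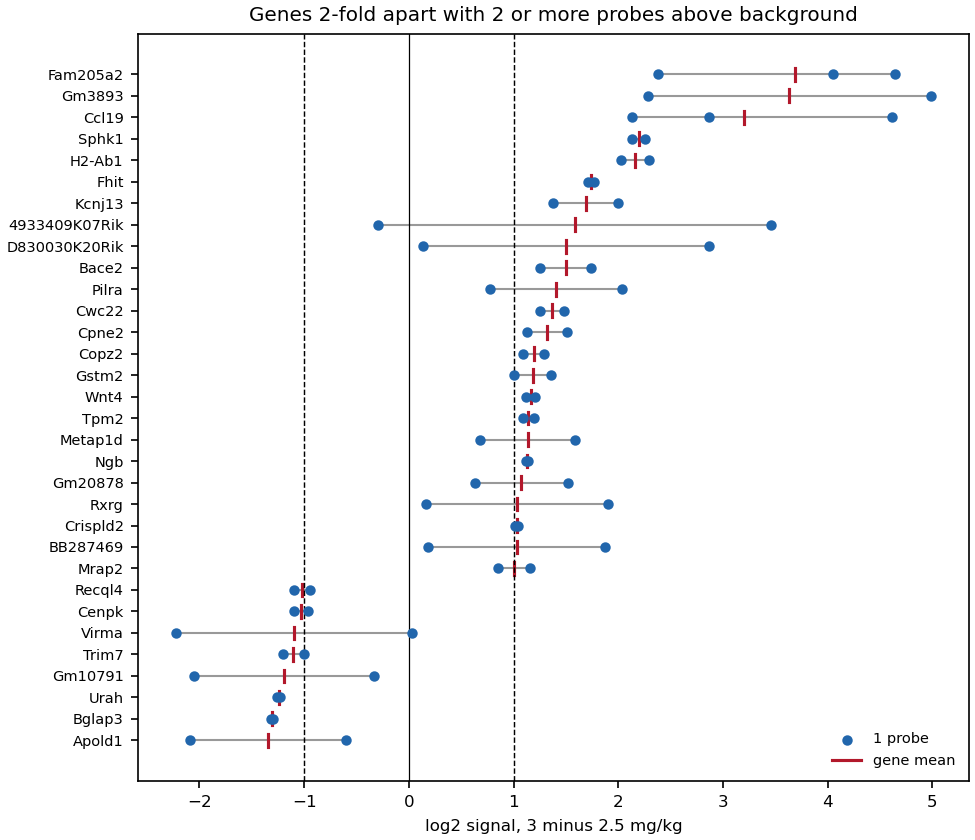
Log2 signal at 3 minus 2.5 mg/kg (x axis) of each probe above background on both arrays (blue) and their mean (red), for the 32 genes at least 2-fold apart that have 2 or more such probes (rows). The probes of Sphk1, H2-Ab1, and Fhit nearly coincide, whereas those of Virma and 4933409K07Rik lie on either side of 0.

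Genes above background on 1 array only give a limit in place of a difference. There were 411 such genes at 3 mg/kg, of which 108 were at least 2-fold higher than the limit of the other array, and 282 at 2.5 mg/kg, of which 79 were. The limit is taken on the dim array as the dimmest probe that still counted as above background there, or the probe's own signal if that was higher. At 3 mg/kg, the odorant receptor gene Olfr1123 (7.47) was at least 7.44-fold higher, Mat1a, which makes S-adenosylmethionine in liver (7.38), at least 6.99-fold, and the cytokine receptor gene Il20ra (7.34) at least 6.69-fold. Of the fibroblast list, the forkhead gene Foxc2 was at least 5.35-fold higher and the proteoglycan gene Omd at least 4.96-fold. At 2.5 mg/kg, Baiap2l1, which bends membranes, read 9.08 and was at least 22.9-fold higher than at 3 mg/kg, and it read 6.81 to 8.99 on the other 3 ICR arrays. The carboxylesterase gene Ces1b was at least 8.82-fold higher at 2.5 mg/kg, Foxp3, the factor of regulatory T cells, at least 8.62-fold, Pof1b at least 8.56-fold, and the carboxypeptidase gene Cpa4 at least 6.09-fold. Ces1b, Pof1b, and Cpa4 were below background on all of the other 4 ICR arrays.

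Probes without a gene symbol divided the other way from named genes. Of 5270 such probes above background on both arrays, 38 were at least 2-fold higher at 3 mg/kg and 149 were lower, compared with 226 higher and 99 lower among 19073 probes with a symbol. Probes against RIKEN cDNA clones held 86 of the 149, out of 1118 such probes, and had a median difference of -0.16.

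The 2 Aβ arrays differ by dose as well, and they share no array with the streptozotocin comparison. Between 10 and 5 μM, 108 of 14695 genes were at least 2-fold higher (0.735%) and 85 were lower (0.578%). There, none of 34 measured genes of the fibroblast list was 2-fold higher at 10 μM and 2 were lower, with a median of -0.43. Of 5 measured genes of the MHC class II list there, 1 was 2-fold higher and 2 were lower, with a median of -0.98. Of 40 immediate early genes in the streptozotocin comparison 2 were lower, and of 39 in the Aβ comparison none was 2-fold apart, with a median of 0.06. Whether the dose differences of the 2 agents differ from each other was not tested.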

How the data were processed

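RNA from 3 mice per model was hybridised to 1 Agilent Mouse Whole Genome 44K array each. The authors deposited the scanner intensity, local background, and flags of every spot, and a matrix of processed values (streptozotocin column medians 157 and 158), which ranks probes as foreground minus background does (Spearman's rho 1.00). For processed values their methods name a 1.4-fold filter over background and quantile normalisation, over arrays that are not stated. Outlier spots were left out (160 and 156), and log2 of the processed signal was averaged per probe and quantile normalised over the 12 arrays. Probes flagged well above background on both streptozotocin arrays were averaged per gene, with symbols of GRCm38.p6 for 27502 of 39429 probes (69.8%). The labels name Cy5, whereas the columns are of the green channel. Normexp (offset 50) used the median foreground, since these files lack the mean. No test was possible with 1 array per dose.

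The comparison and the 40 gene lists were chosen with earlier results of these data known. Named were the 15 largest differences per direction, up to 10 per direction whose 2 or more passing probes were all 2-fold apart, up to 6 members per list, and the 5 largest limits per direction, without predicted genes and a few genes that are not reported here. Other members, the collagen, chemokine, and crystallin families, and predicted genes were picked with their values in view. The procedure was checked on simulated data. Python 3.11.15 (numpy 2.4.6, pandas 2.3.3) and R 4.3.3 (limma 3.58.1) were used.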

Additional observations from a re-analysis of the deposited data

How the results depend on the processing

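No replicate could be left out and no paired analysis was possible because each dose has 1 array. Scaling to the 75th percentile, quantile normalisation over the 5 ICR arrays, a 2-fold background filter added to the flag, the brightest probe, the mean of every probe, and outlier spots kept left the counts of 184 and 67 within 1.5 times. Normexp background with an offset of 50, which compresses dim signals by construction, gave 71 higher and 20 lower genes, and 15 and 16 genes with limits of at least 2-fold on 1 array in place of 108 and 79. The deposited matrix gave 72 higher genes, 39 with limits at 3 mg/kg, and 1 mural cell gene, and the cause was not tested. Without the filter on dim probes 890 genes were higher and 614 lower, and with a 1.4-fold filter over background on all 12 arrays 812 and 538. These settings compare 20880 and 19643 genes in place of 14480, and add genes not well above background on both arrays. Of the higher genes, 171 and 170 were among the 184. The cause of the larger counts was not tested. At 1.5-fold the counts were 520 and 304, with limits for 200 and 137 genes. At 3-fold they were 56 and 11, with limits for 49 and 38, and 7 fibroblast genes and 1 mural cell gene were higher. The fibroblast list held 14 to 24 genes at least 2-fold higher over the 10 alternatives at the 2-fold threshold, and MHC class II 3 in each. All 67 named genes measured on both arrays kept their direction under these 10 alternatives, but 43 of them were at least 2-fold apart with normexp and 45 in the deposited matrix, and 63 to 67 in the others. The list median of MHC class II was 0.14 with the 1.4-fold filter, and that of blood and border immune cells was 0.03 without a filter. Both settings add members that were not well above background on both arrays.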
